A study of Mus musculus with 17 samples.

Results

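The 39 genes described here encode RNA-binding proteins that set alternative splicing, mRNA stability and translation in neurons. They were taken by name from the 55453 gene symbols of the mouse expression table and fall into 14 families: Rbfox, Nova, Ptbp, Celf, Elavl, Mbnl, Khdrbs, Srrm, Msi, Fmr1/Fxr, Cpeb, Pum, Igf2bp and Matr3. Of the 39, 37 reached the mean of at least 1 TPM (a share of 1000000 transcripts, corrected for transcript length) that was set for testing. Igf2bp1 and Igf2bp3, regulators of mRNA stability in the embryo, lay between 0 and 0.15 TPM in every mouse and were not tested. The remaining 37 were detected in the cortex of every group. Igf2bp2 reached the mean of 1 TPM only through the KO (1.10 TPM), P209L Control (1.25 TPM) and P209L (1.64 TPM) groups. Its means were 0.76 TPM in KO Control, 0.84 TPM in R206W Control and 0.89 TPM in R206W mice, so its changes lie near the floor. Bulk RNA does not show which cells they came from.

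RNA of the whole cortex was sequenced from 17 male C57BL/6J mice in 6 groups. Hnrnph2 lies on the X chromosome and encodes hnRNPH2, a nuclear protein that binds guanine-rich RNA and regulates splicing, and mutant males were hemizygous. KO mice (8 weeks, 3 mice) came from a single line with a small insertion or deletion and a premature stop codon in Hnrnph2. R206W knockin mice (8 weeks, 3 mice) and P209L knockin mice (3 weeks, 3 mice) carried a substitution in the nuclear localization signal of hnRNPH2, which its transport receptor recognises. Each line had its own wild-type male littermates as controls (KO Control, 3 mice, 8 weeks; R206W Control, 3 mice, 8 weeks; P209L Control, 2 mice, 3 weeks). P209L mice differed from the other lines in age as well as in allele, and these cannot be told apart. The question put to these genes was whether loss or mutation of 1 splicing regulator was accompanied by altered mRNA levels of other regulators.

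Splicing regulators of this kind bind short motifs in introns and exons and favour or block the use of the neighbouring exon. Rbfox, Nova, Srrm3 and Srrm4 promote neuronal exons. Ptbp1 and Ptbp2 mainly repress exons, and Ptbp1 gives way to Ptbp2 as neurons form. Elavl proteins bind AU-rich and U-rich stretches and stabilise mRNAs or change their splicing. Musashi, Pumilio, Cpeb and the fragile X family (Fmr1, Fxr1 and Fxr2) act mostly in the cytoplasm, where they hold back or release the translation of bound mRNAs, including at synapses.

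The promoters of Elavl3, Msi2 and Cpeb3 are printed. Msi2 and Elavl3 had the smallest p of the members in the average knockin change, in which Msi2 alone passed the adjusted threshold. Cpeb3 differed most with age. Each is the 250 bases before a RefSeq transcription start in GRCm38.p6, on the strand of the gene and in lower case, with the letters of the searched motifs in capitals. Elavl3 (chr9:22052024-22052273, minus strand) has 1 listed start, and for Msi2 (chr11:88718278-88718527, minus strand) and Cpeb3 (chr19:37207472-37207721, minus strand) the first of 3 is shown.
Elavl3: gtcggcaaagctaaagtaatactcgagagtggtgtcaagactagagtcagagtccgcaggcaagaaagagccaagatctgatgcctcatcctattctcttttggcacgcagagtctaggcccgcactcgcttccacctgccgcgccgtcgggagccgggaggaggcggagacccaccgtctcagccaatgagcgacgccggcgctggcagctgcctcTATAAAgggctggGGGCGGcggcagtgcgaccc
Msi2: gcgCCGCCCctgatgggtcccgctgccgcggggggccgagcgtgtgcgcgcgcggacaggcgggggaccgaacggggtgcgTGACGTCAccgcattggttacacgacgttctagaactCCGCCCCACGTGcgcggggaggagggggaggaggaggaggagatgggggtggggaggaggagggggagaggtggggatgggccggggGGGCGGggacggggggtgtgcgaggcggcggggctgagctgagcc
Cpeb3: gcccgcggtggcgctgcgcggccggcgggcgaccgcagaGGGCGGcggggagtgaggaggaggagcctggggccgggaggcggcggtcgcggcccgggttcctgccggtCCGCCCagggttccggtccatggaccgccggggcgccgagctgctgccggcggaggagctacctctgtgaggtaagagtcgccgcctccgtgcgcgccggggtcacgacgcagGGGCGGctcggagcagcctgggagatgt
Motifs were searched on both strands. The TATA box was read as TATAAA. The cAMP response element was read as TGACGTCA. The E-box was read as CACGTG. The GC box was read as GGGCGG. Elavl3 held a TATA box close to its start and 1 GC box, with 20 CpG dinucleotides. Msi2 held a cAMP response element, an E-box and 3 GC boxes, one of which abuts the E-box, with 29 CpG. Cpeb3 held 3 GC boxes and 36 CpG. Over all 32851 promoters of this length, 12.4% held the TATA box letters, 1.55% the cAMP response element, 6.02% the E-box and 32.7% the GC box, and the median was 6 CpG. Of the 39 genes, 30 were matched, with 62 promoters. Counted by promoter, as in the shares above, 35 held a GC box, 6 a TATA box, 8 an E-box and 7 a cAMP response element. Counted by gene, a GC box stood in at least 1 promoter of 21, a TATA box of 5, an E-box of 5 and a cAMP response element of 3. A match describes the letters only. In GENCODE M21 on GRCm38, Elavl3 spans chr9:22015005-22052023, Msi2 chr11:88339382-88718513 and Cpeb3 chr19:37021291-37208601 on the minus strand, and Pum2 chr12:8674134-8752581 on the plus strand. By these spans all printed Cpeb3 bases and most printed Msi2 bases lie inside the annotated gene, whereas those of Elavl3 lie just before it.

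Hnrnph2 was measured at 23.5, 21.3 and 24.4 TPM in KO mice and at 80.5, 145 and 139.7 TPM in KO Control mice, a log2 change of -2.30 ± 0.17 (SE, adjusted p = 8.64e-06). The R206W and P209L groups lay at 0.00 and 0.09 from their controls and were not called. KO Control 1 stood apart, since mitochondrial genes took 20.1% of its TPM (10.7% to 15.4% in the other 16 mice) and its 10 most abundant genes 36.5% (19.4% to 29.3%). It was the lowest of the 6 controls of 8 weeks for 34 of the 37 tested members and for 71.4% of all genes, and for 17 of 37 and 36.7% after scaling by size factors. P209L Control 2 held 1740 TPM of Ttr, a choroid plexus transcript, against 0.67 to 23.2 TPM in the other mice. The cortical projection neuron markers Tbr1 and Neurod6 were present in every mouse, and the markers of dividing cells Top2a and Mki67 did not pass 1.82 TPM.

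Levels are given as the mean of the 6 controls of 8 weeks, with the SD over mice, followed by the mean of the 2 controls of 3 weeks. Matr3, which encodes matrin 3, a nuclear matrix protein that represses exons, was the most abundant member at both ages, at 466.2 ± 40.7 and 279 TPM. Celf4, which binds mRNAs of synaptic proteins, followed at 224 ± 10.004 and 155 TPM, and Khdrbs3 (SLM2, which selects neurexin exons) at 170.4 ± 19.5 and 108 TPM. Rbfox3, known as the neuronal marker NeuN, lay at 144 ± 30.2 and 114 TPM, Rbfox2 at 119 ± 18.7 and 74.1 TPM and Rbfox1 at 116 ± 25.5 and 61.6 TPM. The last pair differed by less than their spread at 8 weeks. Most members overlap another annotated gene, and reads of such pairs may have been divided between them, since the use of strand in counting is not given in the sources used here.

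Among the other splicing regulators, Mbnl2 (142 ± 22.0 and 84.8 TPM) was above Mbnl1 (56.2 ± 6.31 and 30.3 TPM). Ptbp1 lay at 26.6 ± 4.11 and 25.7 TPM, below Ptbp2 at 81.0 ± 7.06 and 71.5 TPM and above Ptbp3 at 11.9 ± 1.59 and 5.84 TPM. Nova1 and Nova2, the antigens of paraneoplastic ataxia, were within their spread of each other at 24.9 ± 2.85 and 23.03 ± 4.80 TPM at 8 weeks. Celf6 reached 10.6 ± 1.31 TPM at 8 weeks against means of 87.0 to 131 TPM for Celf1, Celf2, Celf3 and Celf5, and Khdrbs2 reached 5.05 ± 0.422 TPM. Srrm3 (55.8 ± 9.54 TPM) exceeded its paralog Srrm4 (20.0 ± 3.24 TPM), both of which promote microexons, and Khdrbs1 lay at 51.3 ± 9.21 TPM.

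Among regulators of stability and translation, Cpeb1 (98.8 ± 14.8 TPM), Elavl3 (92.1 ± 13.8), Pum2 (86.4 ± 4.49) and Fxr2 (84.7 ± 16.2) were highest at 8 weeks, and neighbours in this order differed by less than their spread. At 3 weeks the order was Fxr2 (82.1 TPM), Cpeb1 (75.4), Elavl3 (71.9) and Pum2 (50.4). Elavl2 (65.5 ± 6.31 TPM), Cpeb4, Fmr1, Fxr1, Elavl4 and Msi2 followed at 8 weeks, the last 5 between 43.8 and 55.6 TPM. Cpeb3 lay at 36.9 ± 7.17, Cpeb2 at 27.6 ± 3.32, Elavl1 (HuR, found in all tissues) at 26.3 ± 4.28 and Msi1 at 16.9 ± 1.53 TPM at 8 weeks, whereas Cpeb3 was the lowest of these at 3 weeks, at 9.49 TPM against 14.8, 17.5 and 11.4 TPM. Igf2bp2 was the lowest tested member at 0.80 ± 0.16 TPM at 8 weeks. The number of reads behind these values is unknown, since TPM keeps no depth.

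KO mice had no called member. Of the 37 tested, 0 passed an adjusted p of 0.05 (0.00615% of 16265 genes did), 0 had an unadjusted p under 0.05 (4.08%), and for 0 did the KO and control mice separate without overlap (6.25%). The median log2 change was 0.01 over members and 0.06 over all genes. The smallest p belonged to Celf3, a brain member of the Celf family, at 95.3, 87.8 and 135 TPM in KO mice and 67.9, 94.3 and 96.9 TPM in their controls. These ranges overlapped (log2 change 0.29 ± 0.15, adjusted p = 0.999). Elavl2 and Igf2bp2 came next, with log2 changes of -0.23 ± 0.20 and 0.23 ± 0.20 (adjusted p = 0.999 for both). The Elavl2 value rested on single mice, at -0.51 without KO 2 and 0.0104 without KO 3. Without KO Control 1 the medians were -0.16 over members and -0.06 over all genes, and 0 members passed.

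In R206W mice 0 of 37 members passed the adjusted threshold (0.0369% of all genes). An unadjusted p under 0.05 was found for 2 members (2.19% of all genes), Elavl3 and Msi2, both higher (1.31%). Elavl3, which encodes the neuronal stability factor HuC, measured 118, 121 and 128 TPM in R206W mice and 94.5, 96.3 and 94.8 TPM in R206W Control mice. Every R206W mouse lay above every control (log2 change 0.36 ± 0.15, adjusted p = 1). Msi2, which encodes the translational regulator Musashi 2, measured 50.9, 54.2 and 48.5 TPM against 38.4, 45.6 and 45.9 TPM. Its groups did not overlap either (0.24 ± 0.11, adjusted p = 1). Fxr1, a fragile X paralog, was next at 47.4, 45.9 and 47.4 TPM against 52.8, 51.7 and 54.3 TPM (-0.17 ± 0.10, adjusted p = 1).

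R206W and control mice did not overlap for 10 of the 37 members (27%), against 16.2% of all genes. Of these, 5 lay above their controls (8.09% of all genes), namely Celf3, Elavl3, Khdrbs3, Msi1 and Msi2, and 5 below (8.11%), namely Ptbp2, Elavl2, Mbnl1, Fxr1 and Matr3. The median log2 change was 0.01 over members and 0.01 over all genes. Within the Elavl family, Elavl3 took 48.02% ± 1.07 (SD, n = 3) of the summed TPM in R206W mice and 39.8% ± 0.606 (SD, n = 3) in controls, while Elavl2 took 21.6% ± 1.38 and 28.1% ± 1.39. The Elavl2 levels behind this were 58.3, 51.5 and 55.9 TPM against 62.0, 69.35 and 70.5 TPM (log2 change -0.28 ± 0.20).

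In P209L mice 0 of 37 members passed the adjusted threshold (0.0984% of all genes), and 4 had an unadjusted p under 0.05 (7.46%), all of them above the controls (4.56%). Msi2 measured 34.2, 33.2 and 43.7 TPM in P209L mice and 21.8 and 23.3 TPM in P209L Control mice. The lowest P209L mouse exceeded the highest control, and the mean was 164% of the control mean (log2 change 0.68 ± 0.13, adjusted p = 0.0564). Pum2, a Pumilio repressor of translation that acts from the 3′ ends of mRNAs, measured 70.6, 69.1 and 77.8 TPM against 52.0 and 48.8 TPM. The groups did not overlap (0.51 ± 0.10, adjusted p = 0.0844).

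Elavl3 measured 98.5, 104.6 and 117 TPM in P209L mice and 70.9 and 72.8 TPM in their controls, again without overlap (0.56 ± 0.17, adjusted p = 0.324). Matr3 measured 360, 344 and 378 TPM against 319 and 238 TPM. The groups did not overlap, and the 2 controls differed widely from each other (0.38 ± 0.16, adjusted p = 0.603). The Matr3 value was 0.17 (adjusted p = 1) without P209L Control 2, the mouse with high Ttr, and 0.60 (adjusted p = 0.394) without P209L Control 1. Msi2 gave 0.73 and 0.63, Pum2 0.47 and 0.56 and Elavl3 0.58 and 0.54 in the same order, none past the adjusted threshold.

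Msi2, Pum2 and Elavl3 passed the adjusted threshold in P209L mice once TPM was scaled by median-of-ratios size factors (adjusted p = 0.0237, 0.0482 and 0.0156), once length and GC trends were removed (0.0307, 0.0107 and 5.41e-05) and once KO Control 1 was left out of the shared fit (0.0169, 0.0147 and 0.0352). They did not pass in the larger number of the 29 alternatives, 22 for Msi2, 23 for Pum2 and 24 for Elavl3, with adjusted p up to 0.581, 0.906 and 1. Their log2 changes lay between 0.43 and 0.75 over these alternatives. P209L and control mice did not overlap for 12 of 37 members (32.4%, against 24.9% of all genes), and in all 12 the P209L mice were higher (14.2% of all genes). Beside the 4 above these were Rbfox2, Celf3, Celf5, Celf6, Elavl1, Elavl2, Khdrbs2 and Fxr1. The median log2 change was 0.11 over members and 0.02 over all genes, and 30 of 37 members lay above 0. Without P209L 3 these were 0.04, -0.02 and 24, and with length and GC trends removed 0.06, 0.01 and 28. As deposited, 7 of 37 members and 46.2% of all genes lay below 0. The members were measured in the same mice, so their directions are not independent.

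Oligodendrocyte transcripts differed between the same mice. The summed level of 8 oligodendrocyte markers was 4099 to 6110 TPM in P209L Control mice and 2472 to 3547 TPM in P209L mice, and all 8 markers were lower with an unadjusted p under 0.05 (median log2 change -0.90), 0 of them past the adjusted threshold. Of 10 neuronal markers 0 had an unadjusted p under 0.05, and of 5 cortical projection neuron markers 2 did, with 4 of the 5 above 0. The part of cell composition in the values of Msi2, Pum2 and Elavl3 was not tested, and in bulk tissue fewer cells of a type and less RNA per cell cannot be told apart.

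**Figure D1:**
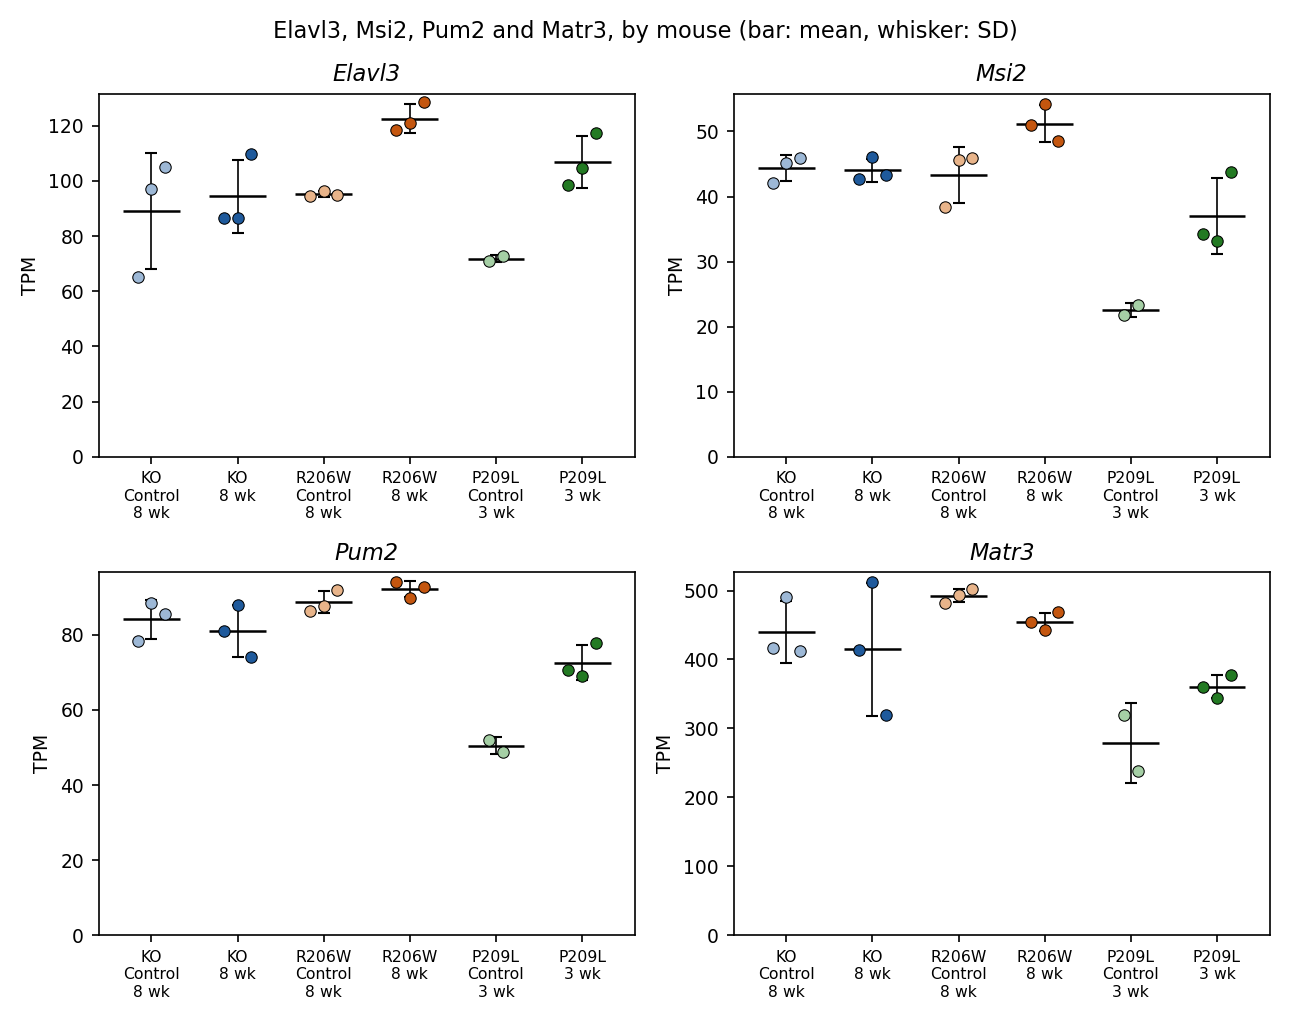
TPM (y axis) of Elavl3, Msi2, Pum2 and Matr3 in each mouse (points) by group and age (x axis), with the group mean (bar) and SD (whisker). The 3 P209L mice sit above their 2 controls in all 4 panels, and the 3 R206W mice sit above theirs for Elavl3 and Msi2 and below for Matr3.

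With the R206W and P209L changes averaged, Msi2 was the 1 member past the adjusted threshold (0.178% of all genes, 29 of 16265), with a log2 change of 0.46 ± 0.08 (adjusted p = 0.0346) and all 6 knockin mice above the controls of their line. Elavl3 had a log2 change of the same size that did not pass (0.46 ± 0.11, adjusted p = 0.208), and Pum2 gave 0.29 ± 0.07 (adjusted p = 0.217). These 3 members had an unadjusted p under 0.05 (5.32% of all genes), all higher (3.06%). Celf3, Elavl3 and Msi2 separated upward without overlap in both lines, 3 of 37 members (8.11%) against 1.56% of all genes. The adjusted p of Msi2 ranged from 0.00331 to 0.178 over 29 alternatives and missed the threshold in 14, of which 13 left out a mouse. In this average all 8 oligodendrocyte markers were lower with an unadjusted p under 0.05 (median log2 change -0.51) and 2 of 5 cortical projection neuron markers had one, none past the adjusted threshold, and the part of cell composition was not tested here either.

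In KO mice, Msi2, Pum2 and Elavl3 did not separate from the controls, and neither did Celf3. Msi2 measured 42.7, 46.1 and 43.3 TPM in KO mice and 42.1, 45.1 and 46.0 TPM in KO Control mice (-0.01 ± 0.11). Pum2 measured 81.1, 87.8 and 73.9 TPM against 78.4, 88.6 and 85.4 TPM (-0.06 ± 0.09). Elavl3 measured 86.7, 86.6 and 109.8 TPM against 65.1, 96.9 and 105 TPM (0.10 ± 0.15). Celf3, which separated upward in both knockin lines, had a larger log2 change in KO mice (0.29 ± 0.15) than in R206W (0.19 ± 0.15) or P209L mice (0.19 ± 0.17). The KO and control ranges of all these genes overlapped.

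The difference between the lines was tested directly. Between the KO and R206W changes, both taken at 8 weeks, 0 of 37 members passed (0.0307% of all genes) and 0 had an unadjusted p under 0.05 (2.29%). The smallest p was that of Msi2, at -0.25 ± 0.16, followed by Khdrbs3 at -0.26 ± 0.19 and Ptbp2 at 0.24 ± 0.19 (adjusted p = 1 for each). Between the average knockin change and the KO change 0 members passed (0.0492%), and 2 had an unadjusted p under 0.05 (5.3%), both higher (1.65%). These were Msi2 (0.47 ± 0.14, adjusted p = 0.625) and Pum2 (0.34 ± 0.12, adjusted p = 0.738). Elavl3 gave 0.36 ± 0.18 (adjusted p = 0.956). A difference between knockin and KO mice was therefore not shown for any member at the adjusted threshold. The R206W and KO controls, alike in age and genotype, were compared as a background. Of the members 0 passed (0% of all genes), and Ptbp3 (0.27 ± 0.12), Mbnl1 (0.24 ± 0.10) and Cpeb2 (0.24 ± 0.11) had an unadjusted p under 0.05 (3.12%), all higher in R206W Control mice (2.82%). The 2 control groups did not overlap for 6 members, all higher in R206W Control mice (8.43%). The median log2 difference was 0.13 over all genes and 0.14 over members, and 15.8% of all genes and 2 members were lower in R206W Control mice. Relative to the median of all genes, Ptbp3 differed by 0.14, Mbnl1 by 0.11 and Cpeb2 by 0.11. The KO controls include KO Control 1, the lowest of the 8-week controls for 71.4% of all genes.

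**Figure D2:**
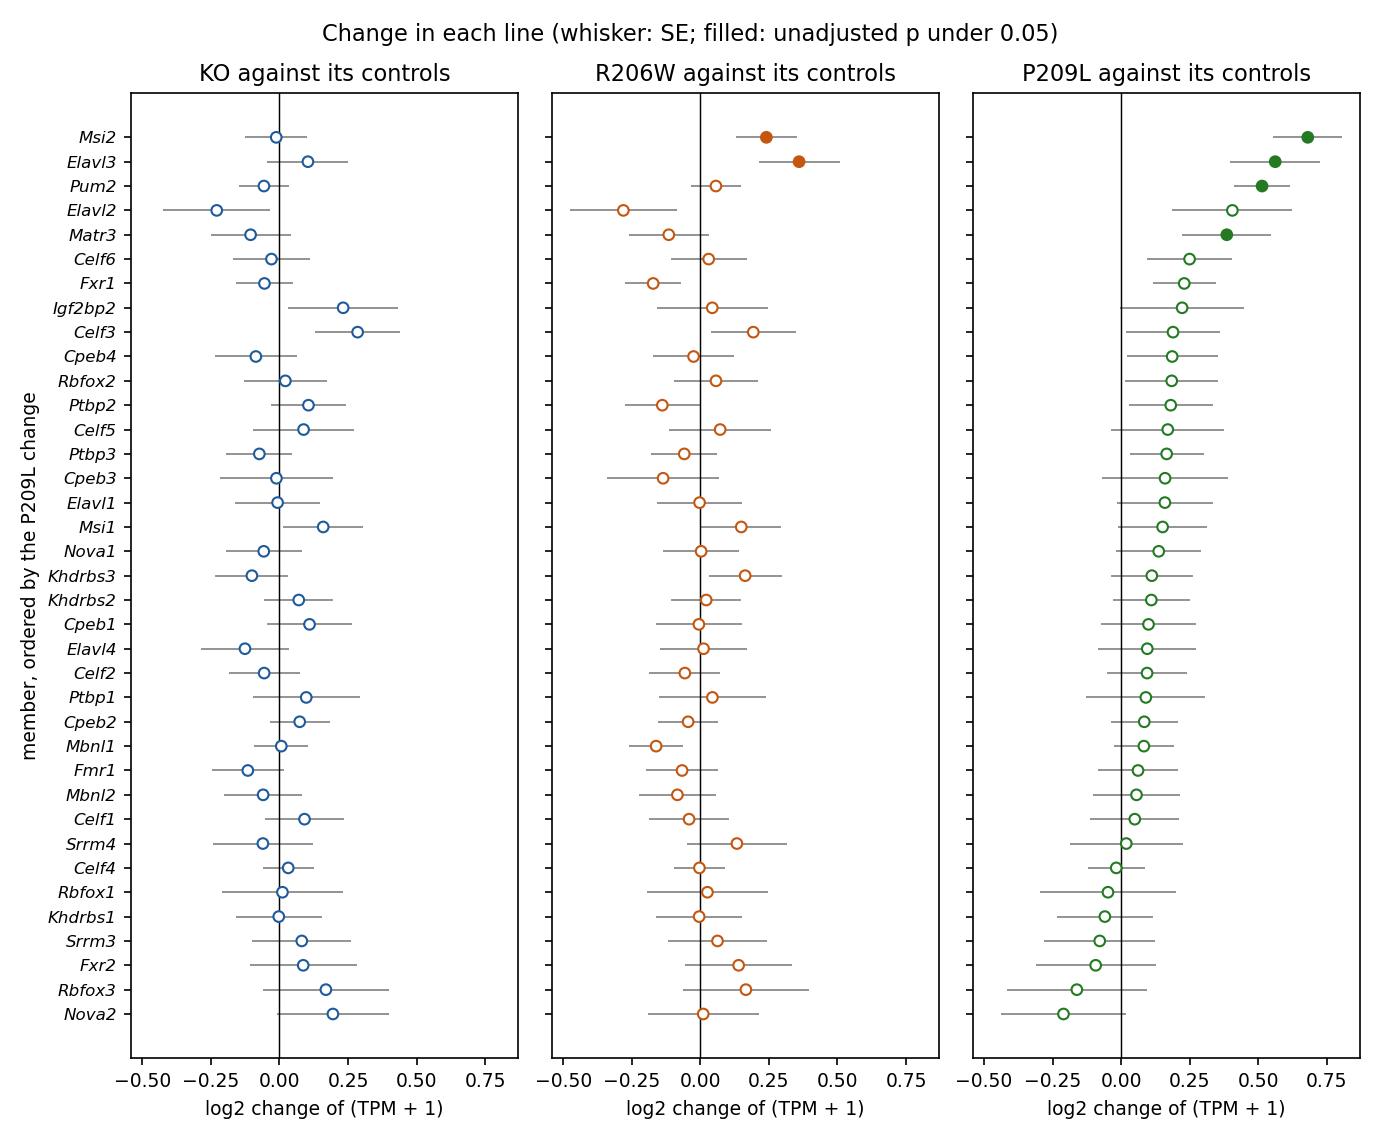
Log2 change of (TPM + 1) with its SE (x axis) for the 37 tested members (y axis, in the order of the P209L change), in KO, R206W and P209L mice against their own controls, filled where the unadjusted p was under 0.05. In the P209L panel 30 of 37 points lie above 0, while 46.2% of all genes lay below 0. In that panel 4 points are filled, against 2 filled points in R206W mice and 0 in KO mice.

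The larger differences lay between the 3-week and the 8-week cortex. In wild-type controls 25 of the 37 members (67.6%) passed the adjusted threshold and all 25 were lower at 3 weeks, while 36.1% of all genes passed in either direction and 24.8% were lower. The median log2 difference (3 weeks minus 8 weeks) was -0.53 over members and -0.12 over all genes. Age, line and litter cannot be told apart in this comparison, which rests on 2 mice of 3 weeks. It gave 16 members, all lower, without P209L Control 2 (43.2%, with 16.7% of all genes), 19 without P209L Control 1 (51.4%, with 18.4%) and 29, all lower, without KO Control 1 (78.4%, with 50.3%).

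Cpeb3, which represses the translation of glutamate receptor mRNAs and takes part in lasting synaptic memory, differed most. The 3-week controls held 9.11 and 9.87 TPM, and the 6 controls of 8 weeks ranged from 22.5 to 41.9 TPM with a median of 39.5 TPM. The groups did not overlap, and the 3-week mean was 25.7% of the 8-week mean (log2 difference -1.83 ± 0.21, adjusted p = 3.22e-05). Relative to the median of all genes the difference was -1.71. Cpeb4 lay at 31.2 and 26.1 TPM against 42.4 to 64.7 TPM (-0.93 ± 0.15, adjusted p = 0.000346), and Cpeb2 at 14.7 and 14.9 TPM against 21.4 to 30.3 TPM (-0.85 ± 0.11, adjusted p = 8.2e-05).

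Cpeb1, the founding member that activates translation through poly(A) tail growth, did not pass. It measured 76.5 and 74.2 TPM at 3 weeks and 74.8 to 120.1 TPM at 8 weeks, and the groups overlapped (-0.37 ± 0.16, adjusted p = 0.074). The makeup of the family differed with age. Cpeb1 supplied 58.2% and 59.3% of the summed Cpeb TPM in the 3-week controls and 41.2% to 49.2% in the 8-week controls, and Cpeb3 supplied 6.92% and 7.89% against 14.0% to 18.0%. The 3-week mutants had Cpeb1 at 57.7% ± 1.77 and Cpeb3 at 7.71% ± 1.35 (SD, n = 3).

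**Figure D3:**
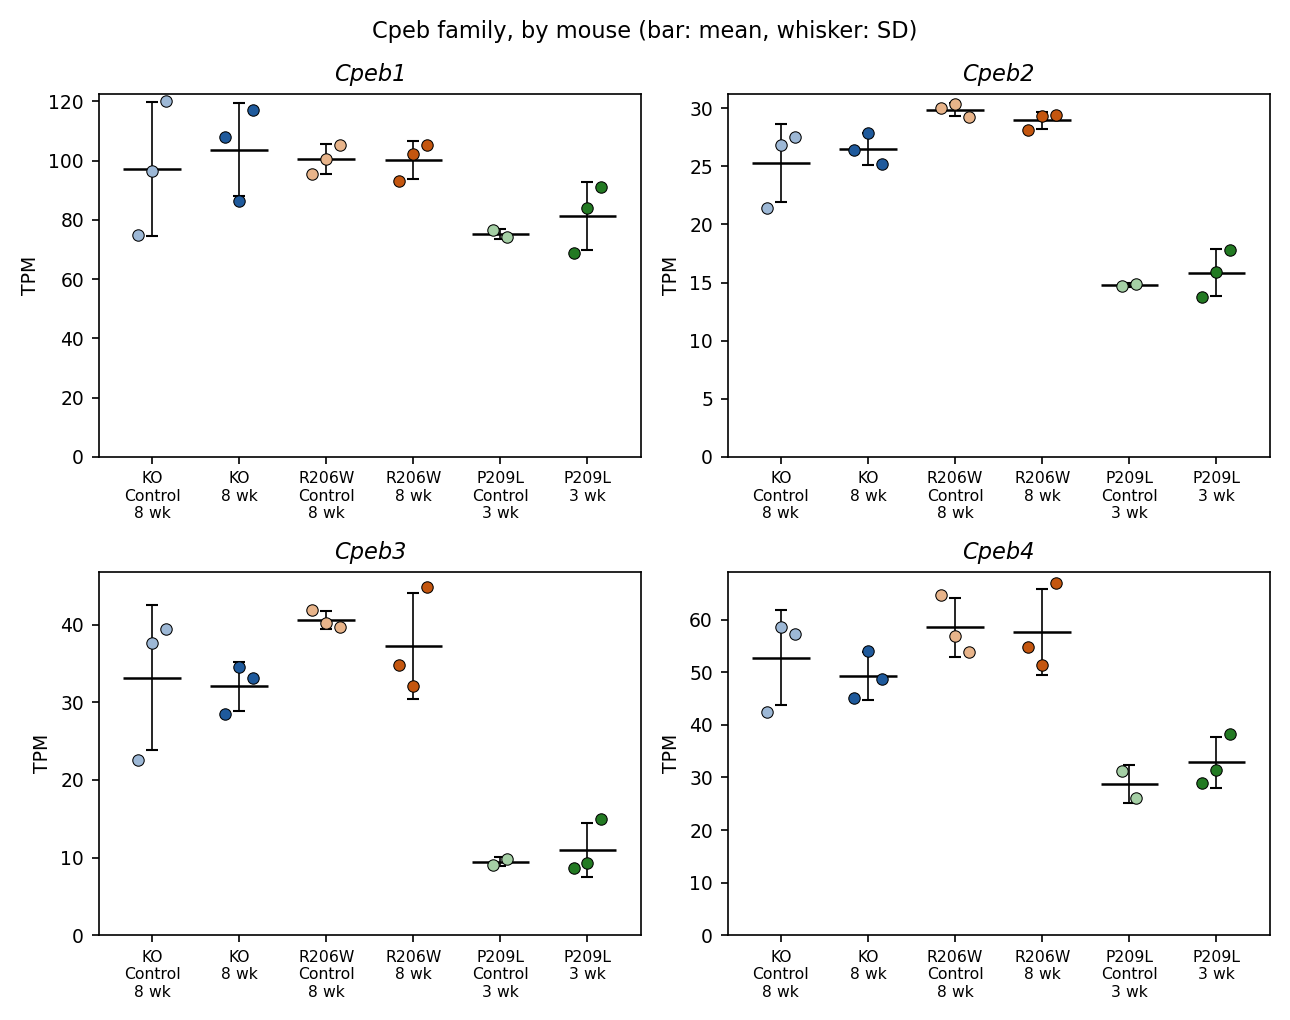
TPM (y axis) of Cpeb1, Cpeb2, Cpeb3 and Cpeb4 in each mouse (points) by group and age (x axis), with the group mean (bar) and SD (whisker). The 5 mice of 3 weeks lie below all mice of 8 weeks for Cpeb2, Cpeb3 and Cpeb4, whereas the ages overlap for Cpeb1.

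The other regulators of stability and translation were mostly lower at 3 weeks. With the Cpeb genes, 11 of 15 passed and were lower, against 24.8% of all genes. Elavl2 (HuB) measured 34.0 and 26.8 TPM at 3 weeks and 57.4 to 73.0 TPM at 8 weeks, without overlap (-1.08 ± 0.20, adjusted p = 0.000778). Elavl4 (HuD) and Elavl1 also passed (-0.65 ± 0.16 and -0.54 ± 0.16), and Elavl3 did not (-0.34 ± 0.15, adjusted p = 0.0849). Msi2 measured 21.8 and 23.3 TPM against 38.4 to 46.0 TPM (-0.93 ± 0.11, adjusted p = 5.24e-05), and Msi1 was lower by a smaller amount (-0.53 ± 0.15). Pum2 (-0.76 ± 0.09), Fmr1 (-0.47 ± 0.13) and Fxr1 (-0.47 ± 0.10) passed as well. Fxr2 lay at -0.02 and Igf2bp2 at 0.30, and neither passed.

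Of 22 splicing regulators 14 were lower in the 3-week controls, against 24.8% of all genes. Rbfox1, whose loss raises excitability, measured 63.7 and 59.5 TPM at 3 weeks and 67.7 to 139 TPM at 8 weeks (-0.87 ± 0.22, adjusted p = 0.00702), Rbfox2 differed by -0.66 ± 0.15, and Rbfox3 did not pass (-0.30 ± 0.23, adjusted p = 0.312). Both Nova genes passed (Nova2 -0.87 ± 0.20, Nova1 -0.68 ± 0.14), although Nova1 lay at -0.17 (adjusted p = 0.211) with length and GC trends removed, as did both Mbnl genes, which favour adult splice forms (Mbnl1 -0.86 ± 0.10, Mbnl2 -0.72 ± 0.14). Ptbp3 was lower (-0.91 ± 0.12, adjusted p = 9.36e-05), while Ptbp1 and Ptbp2 did not pass. Khdrbs3 (-0.64 ± 0.13), Khdrbs1 (-0.44 ± 0.16), Matr3 (-0.75 ± 0.15) and Srrm4 (-0.49 ± 0.18, adjusted p = 0.0487) passed, and Khdrbs2 and Srrm3 did not. The calls of Srrm4 and Khdrbs1 were lost in 19 and 10 of 29 alternatives, with adjusted p up to 0.391 and 0.185.

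The Celf family was split. Celf2 (-0.57 ± 0.13), Celf4 (-0.53 ± 0.09) and Celf1 (-0.42 ± 0.15) were lower at 3 weeks, although with length and GC trends removed Celf1 lay at 0.0202 and Celf2 at -0.03, and neither passed, and Celf5 and Celf6 did not pass. Celf3 went the other way, at 103 and 117 TPM in the 3-week controls and 67.9 to 96.9 TPM in the 8-week controls, without overlap. Its log2 difference of 0.34 ± 0.15 did not pass (adjusted p = 0.0973), and it passed after median-of-ratios scaling (0.45, adjusted p = 0.00498). Its share of the summed Celf TPM was 19.4% and 21.7% at 3 weeks against 12.2% to 13.8% at 8 weeks. Across all members the groups did not overlap for 24 of 37, against 38.2% of all genes, 23 of them lower at 3 weeks (21.5% of all genes).

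Summed over each family, the 3-week controls reached between 56.0% (Msi) and 86.2% (Ptbp) of the 8-week mean, apart from the barely expressed Igf2bp genes. Nova (56.2%), Mbnl (58.1%), Pum2 (58.4%), Cpeb (58.6%) and Matr3 (59.8%) lay near Msi, Elavl (64.5%), Rbfox (65.7%) and Khdrbs (65.9%) came next, and Srrm (76.3%), Celf (81.2%) and the fragile X family (83.0%) lay nearer Ptbp. Rbfox3 held 44.3% and 46.8% of the summed Rbfox TPM at 3 weeks against 36.0% to 38.3% at 8 weeks, and Ptbp3 held 4.94% and 6.49% of the Ptbp sum against 9.04% to 10.5%.

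**Figure D4:**
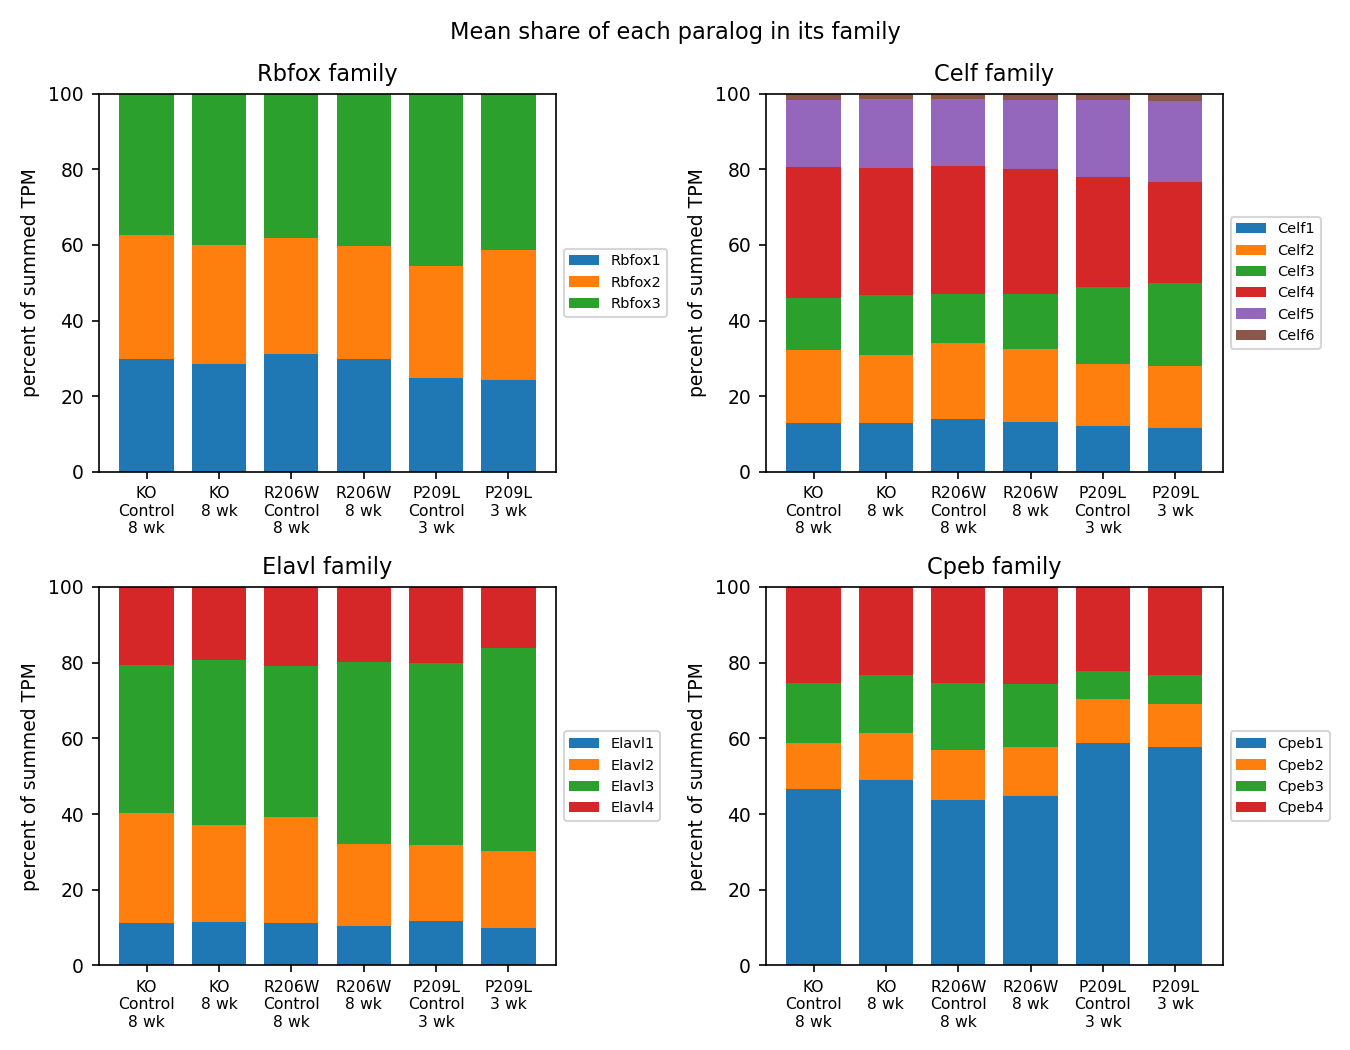
Mean share of each paralog in the summed TPM of the Rbfox, Celf, Elavl and Cpeb families (y axis, percent) by group and age (x axis). The 3-week groups show more Celf3 and Cpeb1 and less Cpeb3, and within the Elavl family the Elavl3 segment is taller in R206W mice (48.02%) than in their controls (39.8%).

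The mutant mice showed the same comparison with other animals. At 3 weeks (P209L) against 8 weeks (KO and R206W together), 24 of 37 members passed (64.9%) and all 24 were lower, while 45.9% of all genes passed and 32.1% were lower. The medians were -0.42 over members and -0.16 over all genes. Cpeb3 was at 8.72, 9.35 and 15.0 TPM in P209L mice and at 28.5 to 44.9 TPM in the 6 mutants of 8 weeks, without overlap (-1.59 ± 0.18, adjusted p = 1.52e-05). Nova2 followed at 8.86, 9.85 and 11.9 TPM against 20.2 to 29.9 TPM (-1.18 ± 0.18, adjusted p = 0.000123). Rbfox1 (-0.94 ± 0.19), Cpeb2 (-0.78 ± 0.09), Mbnl1 (-0.70 ± 0.09), Cpeb4 (-0.68 ± 0.13) and Ptbp3 (-0.68 ± 0.10) were also lower. The groups did not overlap for 18 members, all lower at 3 weeks (28.6% of all genes).

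Of the members called, 22 were called in both comparisons, which is 88% of the 25 in controls and 91.7% of the 24 in mutants. The group means of the comparisons share no mouse, but the variance of each gene was taken from all mice in a shared fit. Leaving out KO Control 1, a mouse of the control comparison, changed the count in mutants from 24 to 27. Both comparisons also set the P209L line against the KO and R206W lines, so the shared calls are not independent. Over all genes 4570 were called in both, which is 77.8% of those called in controls and 61.2% of those in mutants. Elavl2 (-0.42 ± 0.17, adjusted p = 0.0513), Fxr1 and Matr3 (-0.26, adjusted p = 0.108) were called in controls alone, and Rbfox3 (-0.63 ± 0.20, adjusted p = 0.0165) and Srrm3 (-0.47 ± 0.16, adjusted p = 0.0222) in mutants alone. Msi2 and Pum2 were called in both, at -0.36 ± 0.10 and -0.25 ± 0.08 in mutants. Neither call in mutants held after median-of-ratios or quantile scaling or with length and GC trends removed (-0.03 and 0.0765). Elavl3 lay at -0.01 between the mutant ages as deposited. The difference between the comparisons, which equals the P209L change minus the mean of the KO and R206W changes, passed for 0 members (0.0184% of all genes). An unadjusted p under 0.05 was found for 5 (7.4%), all higher in the mutants (3.77%), namely Pum2 (0.51 ± 0.12, adjusted p = 0.284), Msi2 (0.57 ± 0.15, adjusted p = 0.376), Matr3 (0.50 ± 0.19), Elavl2 (0.66 ± 0.26) and Fxr1 (0.34 ± 0.14).

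**Figure D5:**
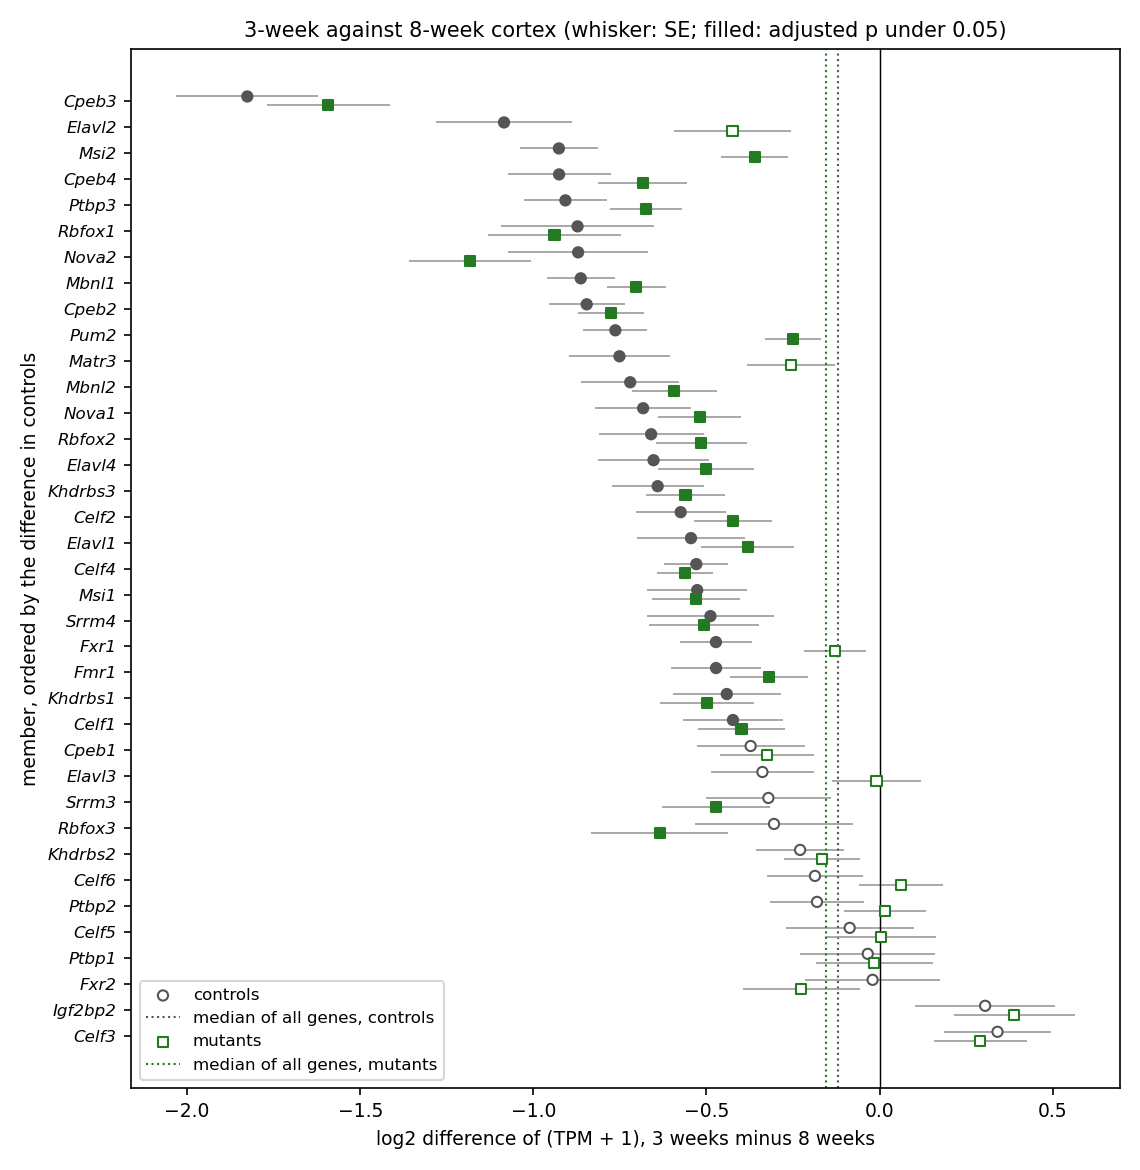
Log2 difference of (TPM + 1) between 3 and 8 weeks with its SE (x axis) for the 37 tested members (y axis), in controls (circles) and mutants (squares), filled where the adjusted p was under 0.05, with dotted lines at the median of all genes. Most points lie left of both dotted lines, Cpeb3 farthest at -1.83 and -1.59, and Celf3 lies to the right of 0.

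The direction of the calls over all genes depended on scaling. As deposited, 31.3% of the genes called between the control ages and 30.2% of those called between the mutant ages were higher at 3 weeks. After median-of-ratios scaling these were 45.5% and 47.8%, after quantile normalization 50.6% and 50.2%, and with length and GC trends removed 50.7% and 51.7%. Of the members, 26 were then lower and 1 higher in controls after median-of-ratios scaling (73% called, with 43.8% of all genes), 25 and 1 after quantile normalization (70.3%, with 44.5%), and 18 and 2 with length and GC trends removed (54.1%, with 43.2%). In mutants these were 21 and 3 (64.9%, with 51%), 21 and 3 (64.9%, with 51%), and 14 and 6 (54.1%, with 51.7%). With length and GC trends removed the members' median was -0.24 in controls and -0.11 in mutants, and the share of members called in mutants was close to that of all genes. The members' transcripts were long, with a median of 4952 bases against 3074 bases over all genes and a GC content of 46.6% against 49.6%. Neuronal markers differed with age too, 5 of 10 lower and 1 higher in controls and 8 lower and 1 higher in mutants, with summed levels of 3915 to 4249 TPM in the 3-week controls, 4078 to 7211 TPM in KO Control and 6463 to 6855 TPM in R206W Control mice. Of 8 oligodendrocyte markers, 6 were higher in the 3-week controls (median 0.73), while in the 3-week mutants 0 were higher and 1 was lower (median -0.16). The part of these in the members' values was not tested.

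Genes that work beside the members were read from 3 lists. No gene of any list passed in KO, R206W or P209L mice. Of 26 other neuronal RNA-binding proteins tested, 9 were lower and 1 was higher in the 3-week than in the 8-week controls (median -0.32), a share of 38.5% that lies near the 36.1% of all genes. The smallest p belonged to Sfpq (-0.95, adjusted p = 1.89e-05), Syncrip (-0.996, adjusted p = 6.44e-05) and Stau2 (-0.67, adjusted p = 0.000127), the largest difference was that of Pura (-1.44), and the higher gene was Srrm2 (0.61, adjusted p = 0.0123). In mutants 14 were lower and 2 higher, the latter Srrm2 and Lin28b (median -0.41, 61.5% called against 45.9% of all genes). Of 20 partners in translation, 12 were lower and 0 higher in controls (median -0.49), among them Ago2 (-1.26), Cyfip2 (-1.19) and Nufip2 (-1.14), and likewise 12 and 0 in mutants (median -0.31), among them Cyfip2 (-1.46), Ago2 (-1.05) and Nufip2 (-0.70).

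Of 14 mRNAs known to be bound by members, 9 were lower and 0 higher at 3 weeks in controls (median -0.53) and 11 and 0 in mutants (median -0.70). Of all genes, 24.8% were lower in controls and 32.1% in mutants. Map1b, a target of FMRP, differed by -1.61 in controls and -1.52 in mutants, and Camk2a, a target of Cpeb proteins, by -0.69 and -1.11. In P209L mice, where 0 of the 14 passed, the smallest p was that of Igf2, the mRNA that gave the Igf2bp proteins their name, at 20.3, 24.9 and 21.2 TPM against 39.1 and 54.5 TPM. The mice did not overlap (-1.03 ± 0.23, adjusted p = 0.123), and Igf2 was singled out after its values were seen. The 54.5 TPM was that of P209L Control 2, the mouse with high Ttr. The part of choroid plexus tissue in the Igf2 values was not tested.

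Runs of at least 4 guanines, the kind of sequence that hnRNPH2 binds, were counted as a property the choice of members did not use. The count covered a single spliced transcript per gene and left out introns. The members' transcripts held a median of 3.26 runs per kilobase against 3.02 over 16138 genes with a matched transcript. Fxr2 (9.83), Msi1 (7.98) and Elavl3 (7.98) stood highest among the members named here, Msi2 held 4.97, and Pum2 (2.22), Cpeb3 (1.86) and Matr3 (1.44) were below the median. The genes with the smallest p in P209L mice held both many and few runs in these spliced transcripts. Binding of their RNA by hnRNPH2 was not tested.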

How the data were processed

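Cortex of 17 mice, each mouse 1 library, was frozen and thawed in RNAlater-ICE, RNA was purified with RNeasy columns, and libraries were made with the TruSeq Stranded Total RNA kit. The authors deposited 1 table of TPM values, in which each library sums to 1000000. The submitters' processing notes name Trim Galore, STAR 2.7.1a, RSEM, GATK 4.0.4.0 and mm10, without the role of each, and the test applied to these libraries is not given in the sources used here. TPM keeps no read number, so depth is unknown.

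The table has 55573 rows. Rows of the 120 symbols listed more than once were added together, and testing was limited to the 16265 genes that averaged at least 1 TPM. Values were log2(TPM + 1), a scale that understates changes of low genes. The 6 groups shared a single limma model (version 3.58.1, R 4.3.3) with a mean per group and a moderated variance that followed expression level (eBayes, trend). Tests were two-sided, with the Benjamini-Hochberg adjustment taken across every tested gene of a comparison and a threshold of 0.05. Of 10 comparisons, 8 were set at the start, and the average knockin change minus the KO change and the age difference between mutants and controls were added after seeing the data. The members and gene lists were chosen with earlier results of these data known. Values were given for every member past the adjusted threshold or with an unadjusted p under 0.05, or else for the 3 members with the smallest p. The 2-mouse P209L Control group was used as given. The fit was tested on simulated data.

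Alternatives were pseudocounts of 0.1 and 0.5, no filter or a mean of 5 TPM, median-of-ratios or quantile scaling, removal of mitochondrial genes, separate fits, the replicate number as a block, robust eBayes, sample weights and leaving out each mouse. Removal of length and GC trends was added after seeing the data. Gene positions were read from GENCODE M21 and promoter sequences from RefSeq, both on GRCm38.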

Additional observations from a re-analysis of the deposited data

Results flagged for a closer look

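In the group of 6 wild-type mice of 8 weeks, 18 of the 39 members had 1 mouse that lay far from the other 5. In 17 of them this was KO Control 1 at the low end. Chance alone flags about 1 in 20 groups, but these flags share 1 library and are not independent, and over all tested genes 29.5% had such a mouse and 26.2% had KO Control 1 alone at the low end. Among splicing regulators it held 67.7 TPM of Rbfox1, 82.9 of Rbfox2, 84.7 of Rbfox3, 13.9 of Nova2, 18.85 of Ptbp1, 58.9 of Celf1, 96.1 of Celf2, 79.1 of Celf5, 98.5 of Mbnl2, 33.6 of Khdrbs1, 37.5 of Srrm3 and 13.8 of Srrm4. Among regulators of stability and translation it held 65.1 TPM of Elavl3, 33.02 of Elavl4, 13.9 of Msi1, 54.1 of Fxr2 and 22.5 of Cpeb3. Mitochondrial genes took 20.1% of the TPM of this mouse and its size factor was 0.805, and after size-factor scaling it stood apart at the low end for 2 members. The part of these in the member values was not tested. The remaining mouse was R206W Control 1, with 0.12 TPM of Igf2bp3, an untested gene near 0.

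For 3 members all R206W mice lay below their controls and all P209L mice lay above theirs. Of all genes, 8.11% separated downward in R206W mice and 14.2% upward in P209L mice. The share of all genes with both was not counted, so the 3 members are a description only. The log2 changes were -0.28 and 0.41 for Elavl2, -0.17 and 0.23 for Fxr1, and -0.12 and 0.38 for Matr3, in that order. The difference between the R206W and P209L changes was not tested, and allele and age cannot be told apart in it.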

How the results depend on the processing

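In P209L mice, where 0 members were called, 2 were called with no filter, 1 with a mean of at least 5 TPM, 3 with median-of-ratios scaling, 1 with quantile normalization, 2 with mitochondrial genes removed, 3 with sample weights and 3 with length and GC trends removed. For the average knockin change, 1 call became 2 with median-of-ratios scaling or quantile normalization, and 3 with sample weights or without length and GC trends. A separate fit of the groups compared lost the call of Msi2 and called 2 other members, Elavl3 and Pum2. Sample weights (0.0818 for KO Control 1 to 4.05 for KO Control 2, estimated gene by gene because the default estimate did not converge) gave 8 members, all lower, in KO (21.6%, with 13.3% of all genes called and 10.1% lower), 1 in R206W, 2 in KO minus R206W, 4 in the knockin average minus KO and 1 in the age difference. Without length and GC trends the counts were 1 in R206W, 1 in the knockin average minus KO and 1 in the age difference. Apart from KO with sample weights, the share of all genes called beside these counts is not given here. The counts are therefore not read as particular to the members. Leaving out 1 mouse gave 0 to 3 members in P209L (3 without KO Control 1), 0 to 3 in the knockin average, 16 (without P209L Control 2) to 29 in the control ages, 17 to 27 in the mutant ages and 0 in each of the other comparisons. The knockin average gave 3 members without KO Control 1 and 0 without any one of the R206W, R206W Control or P209L Control mice, P209L 1 or 3, KO 1 or 2, or KO Control 2. Reversed values were Igf2bp2 in KO (-0.12 with sample weights), Celf1 (0.0202 in controls and 0.0230 in mutants) and Pum2 (0.0765 in mutants) across ages without length and GC trends, and Elavl2 in KO, at -0.51 without KO 2 and 0.0104 without KO 3. Of all values compared, 2223 kept direction and side of the threshold, 77 gained a call, 100 lost one and 5 reversed. The cause was not tested. Read depth is unknown and sets no limit here that could be computed.

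The replicate numbers were not taken as pairs. Deviations of same-numbered mice correlated at 0.117, -0.0581 and 0.331 in KO, -0.0283, -0.0297 and -0.113 in R206W, and 0.0814 and 0.00276 in P209L. KO 1, KO 3, P209L 1 and P209L 2 correlated best with the control of their own number, and KO 2 and the R206W mice with another. Such correlations cannot show whether same-numbered mice were littermates or were handled together. With the replicate block 24 members were called between control ages, 26 between mutant ages and 1 in the knockin average (Msi2, adjusted p = 0.0369), and 0 in the others.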
